A study of Mus musculus with 4 samples.

Results

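The genes described are 10 antioxidant enzymes and NRF2 targets, *Nqo1*, *Gclm*, *Gclc*, *Txnrd1*, *Prdx1*, *Sod1*, *Sod2*, *Cat*, *Gpx1* and *Gpx4*. They were chosen by name from the 55536 genes of the annotation and not by a measured value, though with earlier results of these data known. In whole 4T1 tumors, 9 of the 10 had a listed transcript in each library, among 9561 genes listed with Control SMO and 9660 with LFPRLR SMO. In the tumor Treg list, which held 3067 genes, 6 of the 10 were listed. Over the bases both whole tumor libraries covered, *Gpx1* differed most, at 70.8 FPKM with Control SMO and 34.7 FPKM with LFPRLR SMO. That measure was added after seeing the data. In FPKM summed over transcripts, *Prdx1* (151.6 and 47.3) and *Gclc* (1.98 and 7.89) differed more, in the same order of libraries.

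These enzymes remove reactive oxygen species in sequence. Superoxide dismutases turn superoxide into hydrogen peroxide, and catalase, peroxiredoxins and glutathione peroxidases reduce the peroxide. Glutathione peroxidases draw on glutathione, whose first synthetic step is made by the ligase with subunits *Gclc* and *Gclm*, while peroxiredoxins draw on thioredoxin, which is kept reduced by thioredoxin reductase. The transcription factor NRF2, encoded by *Nfe2l2* and held low by *Keap1*, drives many of these genes, and tumor cells and the macrophages around them both use the system.

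Tumors were grown from 4T1 cells, a mouse mammary carcinoma line placed in the mammary fat pad of female Balb/c mice carrying EGFP on *Foxp3*, aged 8 weeks. Mice received either Control SMO, a splice modulating oligomer with no target, or LFPRLR SMO, which blocks splicing to the long form of the prolactin receptor, for 12 days by minipump. The 4 groups were whole tumor and sorted EGFP-positive tumor Tregs under each oligomer, and in each group the RNA of 6 mice was combined into 1 library. Every group was therefore 1 sample, no spread between mice can be given, no test was made, and all ratios describe the libraries.

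The values deposited under the LFPRLR SMO and Control SMO labels for tumor Tregs were identical in 4838 of 4838 transcripts, so they were counted as 1 set, called the tumor Treg library, and no Treg ratio can be given. In that library 0 of 12 T cell genes were listed, *Foxp3* and *Cd3e* among those with none, while 16 of 16 monocyte and macrophage genes were listed with a summed level of 545.8 FPKM, so its values were read as those of the library labelled Treg. *Prlr*, the target of the LFPRLR SMO, had 0 overlapping transcripts in all 3 libraries, and the effect of the oligomer on it could not be checked. The libraries held 22481, 31908 and 4838 transcripts (whole tumor Control SMO, whole tumor LFPRLR SMO, Treg), and 1 FPKM stood for a median read depth of 1.88, 1.75 and 0.947, respectively.

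The level of a gene was the FPKM (fragments counted per length of transcript and per depth of the library) summed over its listed transcripts of at least 300 bases. A gene that the assembler had broken into pieces is counted once per piece by this sum. A second level was therefore taken over shared bases, the mean FPKM over annotated exon bases covered in both whole tumor libraries. For a gene with 1 transcript in each library the 2 levels are equal by construction. Ratios are log2((LFPRLR SMO + 0.1)/(Control SMO + 0.1)), negative where the level was lower with LFPRLR SMO. Among 10408 genes with at least 1 FPKM in either whole tumor library, 18.3% were at least 2 times higher and 16.6% at least 2 times lower with LFPRLR SMO in summed FPKM, with a median log2 ratio of -0.08. Over shared bases the shares were 1.63% and 3.33% of 8518 genes, and the median was -0.13.

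All 9 listed members passed the minimum of 1 FPKM. In summed FPKM, *Prdx1* and *Gpx1* were at least 2 times lower with LFPRLR SMO and *Gclc* was at least 2 times higher, which makes 2 and 1 of 9 beside the background of 16.6% and 18.3%. That background includes genes listed in only 1 library. Among the 8658 genes listed in both, as all 9 members were, 10.5% were lower and 11.2% higher. Over shared bases, 1 of 9 was at least 2 times lower, *Gpx1*, and 0 were higher. The log2 ratio was below 0 for 6 of 9 in summed FPKM (median -0.54) and for 5 of 9 over shared bases (median -0.16), where 53.7% and 63.6% of all genes lay below 0.

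**Figure D1:**
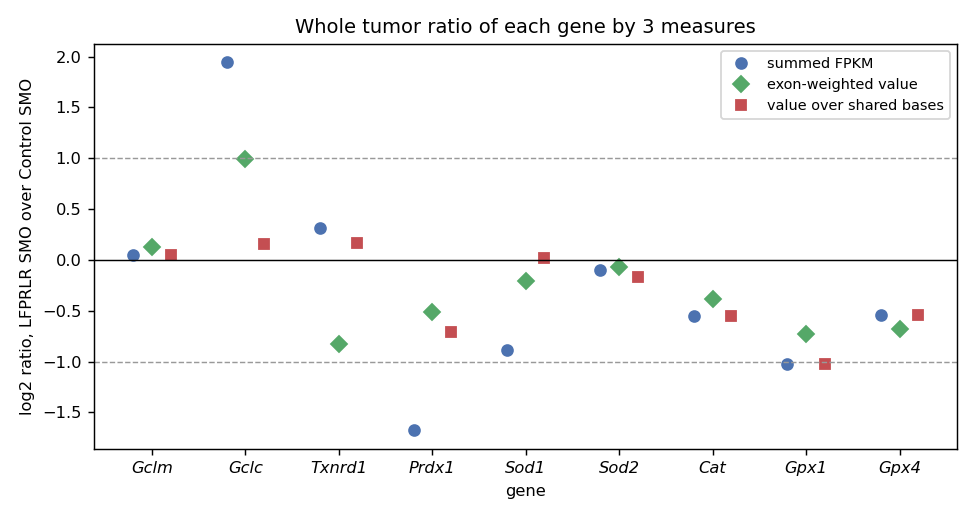
Log2 ratio of LFPRLR SMO over Control SMO in whole tumor for the 9 listed members, with a point for each of 3 measures (summed FPKM, exon-weighted value and shared bases) 1 pooled library per group and dashed lines at a factor of 2. *Txnrd1* and *Sod1* have points on both sides of 0, the other 7 members on 1 side, and only *Gpx1* is past a factor of 2 over shared bases.

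*Sod1*, the cytosolic copper-zinc dismutase at chr16:90220754-90226329 (GRCm38, plus strand), was listed at 61.3 FPKM with Control SMO, 33.1 FPKM with LFPRLR SMO and 5.86 FPKM in the Treg library. The summed log2 ratio was -0.89, but the Control SMO value was the sum of 2 pieces, exons 1 and 2 at 12.8 FPKM and exons 3 to 5 at 48.5 FPKM, where LFPRLR SMO had 1 transcript over all 5 exons at 33.1 FPKM. Over the 593 shared bases the levels were 32.7 and 33.1 FPKM, a log2 ratio of 0.01. The ratio thus took opposite directions in the first 2 exons and in the last 3, and the 2 means over the gene were nearly equal.

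*Sod2*, the mitochondrial manganese dismutase at chr17:13006846-13040063 (plus strand), was listed at 5.84 FPKM with Control SMO, 5.44 FPKM with LFPRLR SMO and 1.41 FPKM in the Treg library. Both whole tumor values were sums of 2 pieces, and their means over covered bases were 3.05 and 2.71 FPKM, while the Treg value was 1 transcript. The log2 ratio was -0.10 in summed FPKM and -0.16 over 3715 shared bases, near the median of all genes. *Sod1* was listed at 10.5, 6.08 and 4.15 times the summed FPKM of *Sod2* in the 3 libraries, and at 8.21, 12.2 and 4.15 times its mean over covered bases, so the cytosolic enzyme was the higher one in each library by both measures.

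*Cat*, catalase of peroxisomes at chr2:103453849-103485160 (minus strand), had 1 transcript of 13 exons in each whole tumor library with the same annotated introns. Its level was 6.85 FPKM with Control SMO (95% bounds of the assembler 5.28 to 7.74) and 4.65 FPKM with LFPRLR SMO (3.59 to 5.48). The log2 ratio was -0.55 in summed FPKM and, with 1 transcript in each library, necessarily the same over shared bases. The bounds, which cover the assignment of reads and not the spread between mice, overlapped. No *Cat* transcript was listed in the Treg library.

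*Gpx1*, the cytosolic glutathione peroxidase at chr9:108338903-108340343 (plus strand), was listed at 70.8 FPKM with Control SMO, 34.7 FPKM with LFPRLR SMO and 29.5 FPKM in the Treg library. Each library had 1 transcript with the single annotated intron, so no piece was counted more than once. The bounds of the assembler did not hold the FPKM in either whole tumor library and are not given. Exon 2 was covered over 62.3% of its bases with Control SMO and 99.8% with LFPRLR SMO. Mean read depth over the transcript was 133.9, 61.8 and 27.9. With LFPRLR SMO the level was 2.04 times lower, a log2 ratio of -1.03 in summed FPKM. The ratio over 847 shared bases was the same by construction, since each library had 1 transcript. An exon-weighted value gave -0.73. That value sums FPKM times the exon bases shared with the gene, over overlapping transcripts not on the opposite strand, assigned or not. The sum is divided by the length of the longest annotated transcript.

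*Gpx4*, the glutathione peroxidase that reduces lipid hydroperoxides in membranes, lies at chr10:80047166-80056439 (plus strand). Its level was 29.1 FPKM with Control SMO, 19.9 FPKM with LFPRLR SMO and 10.7 FPKM in the Treg library. All 3 transcripts had the same annotated introns. The log2 ratio was -0.54 in summed FPKM, 1.46 times lower with LFPRLR SMO, with read depths of 55.1 and 35.3. With 1 transcript in each library it was necessarily the same over shared bases. The pseudogene *Gpx4-ps2* had 0 listed transcripts in whole tumor and 1 in the Treg library, and how reads were shared between the gene and this copy is not given in the sources used here.

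*Gpx1*, *Gpx4* and *Txnrd1* encode selenoproteins, in which a UGA codon, normally a stop, is read as selenocysteine at the active centre. The coding sequence around that codon is shown for each (GENCODE annotation of GRCm38, plus strand, selenocysteine TGA in capitals), because whether a listed transcript reaches it decides whether the active centre is in the measured RNA.
Gpx1, codon at chr9:108339451-108339453: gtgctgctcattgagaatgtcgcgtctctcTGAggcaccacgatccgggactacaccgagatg
Gpx4, codon at chr10:80054737-80054739: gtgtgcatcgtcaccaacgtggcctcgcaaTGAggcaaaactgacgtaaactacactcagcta
Txnrd1, codon at chr10:82896037-82896039: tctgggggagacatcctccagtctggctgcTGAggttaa
In *Gpx1* 154 codons and in *Gpx4* 124 codons follow before the stop codon, whereas in *Txnrd1* 1 glycine codon follows, then TAA. The *Gpx1* and *Gpx4* codons lay inside the listed transcript in all 3 libraries, at the levels given above.

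The *Txnrd1* codon was covered at 10.3 FPKM with Control SMO and at 3.20 FPKM in the Treg library, and by none of the listed transcripts with LFPRLR SMO. There both transcripts stopped at position 82896017, 20 bases before the codon and 1673 bases before the end of the Control SMO transcript at 82897690. Among 8667 genes listed in both libraries, 10.7% stopped at least 1000 bases earlier with LFPRLR SMO and 5.50% at least 1000 bases earlier with Control SMO. A missing stretch says that no listed transcript held it, and not that it was absent from the RNA.

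*Txnrd1*, cytosolic thioredoxin reductase at chr10:82833951-82897712 (plus strand), was listed at 10.3 FPKM with Control SMO as 1 transcript of 15 exons with a read depth of 19.2. With LFPRLR SMO its 12.8 FPKM were the sum of 4.09 FPKM from a transcript of 14 exons with another first exon and 8.71 FPKM from a piece that began farther into the gene. The Treg value of 10.3 FPKM was the sum of 3 pieces, and its mean over covered bases was 3.30 FPKM. The whole tumor log2 ratio was 0.31 in summed FPKM, 0.17 over 1615 shared bases (10.3 and 11.6 FPKM) and -0.83 in the exon-weighted value, so its direction turned with the measure.

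*Prdx1*, a thioredoxin-dependent peroxidase at chr4:116685544-116700822 (plus strand), was the highest member in both whole tumor libraries in summed FPKM, at 151.6 FPKM with Control SMO and 47.3 FPKM with LFPRLR SMO, and had 13.5 FPKM in the Treg library. With Control SMO the sum came from exons 1 to 4 at 102.4 FPKM over 407 bases and a second piece at 49.3 FPKM over 408 bases. LFPRLR SMO had 1 transcript over all 6 exons at 46.3 FPKM and a piece at 1.01 FPKM that began in the last exon and ran past the end of the gene. The log2 ratio was -1.68 in summed FPKM and -0.71 over 815 shared bases (75.8 and 46.3 FPKM). In exons 1 to 4 the levels were 102.4 and 46.3 FPKM, whereas in exon 5 they were 49.3 and 46.3 FPKM. In exon 6 they were 49.3 FPKM over 16.8% of its bases and 15.2 FPKM over 53.9% of its bases, where the low piece was averaged in. Over shared bases the lower level with LFPRLR SMO lay mainly in the first 4 exons.

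*Gclc* and *Gclm* encode the catalytic and the modifier subunit of glutamate-cysteine ligase. *Gclm*, at chr3:122245557-122270732 (plus strand), was level between the whole tumor libraries, at 2.82 FPKM with Control SMO (bounds 2.14 to 3.49) and 2.92 FPKM with LFPRLR SMO (2.08 to 3.81), a log2 ratio of 0.05. *Gclc*, at chr9:77754535-77794485 (plus strand), was listed at 1.98 FPKM with Control SMO as 1 transcript over its last 6 exons. With LFPRLR SMO its 7.89 FPKM were the sum of 4 transcripts that together covered all 16 exons and overlapped in exon 1 and exon 16. The summed log2 ratio of 1.94 became 0.15 over 1597 shared bases, where the levels were 1.98 and 2.21 FPKM. Of the shared exons, 11 to 15 had log2 ratios below 0 (-0.07 to -0.48), and exon 16, where 2 overlapping LFPRLR SMO transcripts were added, was above 0 at 0.31. Exons 1 to 10 had no listed transcript with Control SMO and 1.88 FPKM with LFPRLR SMO, apart from exon 1 at 5.41 FPKM.

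Neither *Gclc* nor *Gclm* was listed in the Treg library. The *Gclm* interval held 1 Treg transcript there, 666 bases at 17.1 FPKM with no strand, which was assigned to the antisense gene *Gm17494* and shared 250 bases with *Gclm* exons. Without strand its reads cannot be told apart between the genes. With LFPRLR SMO, an unassigned transcript of 1296 bases at 3.69 FPKM shared 555 bases with *Gclm*. It was not counted in the summed or shared-base level and entered only the exon-weighted value.

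*Nqo1*, the quinone reductase often used as a readout of NRF2, lies at chr8:107388225-107403206 (minus strand) and had 0 overlapping transcripts in each of the 3 libraries. Among listed transcripts within 20% of its length of 1553 bases, the lowest level was 0.380 FPKM with Control SMO, 0.372 FPKM with LFPRLR SMO and 0.0126 FPKM in the Treg library. It is described only as not listed, since the lists need not hold every transcript.

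**Figure D2:**
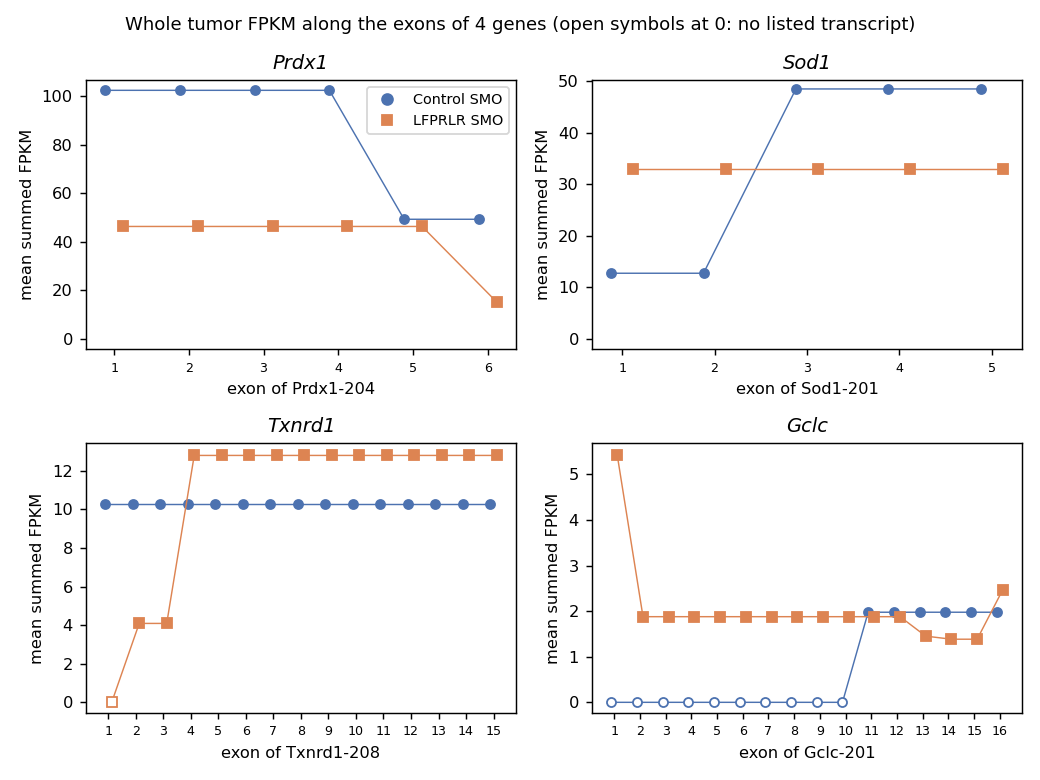
FPKM summed over listed transcripts, averaged over the covered bases of each annotated exon, for 4 of the 5 members that were assembled in pieces (*Sod2*, with 2 pieces in each whole tumor library, is not drawn), with exons in the order of transcription, open symbols where no transcript was listed and 1 pooled library per group. The *Sod1* lines cross between exons 2 and 3, the *Prdx1* lines are apart in exons 1 to 4 and in exon 6, and *Gclc* has no Control SMO value in exons 1 to 10.

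The order of the members within a library was read from ranks of summed FPKM. With Control SMO, *Prdx1* ranked 89, *Gpx1* 216, *Sod1* 244 and *Gpx4* 579 from the top of 9561 genes. With LFPRLR SMO the same 4 ranked 251, 348, 379 and 767 of 9660 genes. *Txnrd1* followed at ranks 2246 and 1571, and *Cat*, *Sod2*, *Gclm* and *Gclc* lay lower with Control SMO, at ranks 3679, 4372, 7340 and 8308. In the Treg library *Gpx1* was first among the members, at rank 123 of 3067 genes, followed by *Prdx1* at 317, *Gpx4* at 409, *Txnrd1* at 433, *Sod1* at 889 and *Sod2* at 2400. Neighbours in these orders have no replicate error to separate them, and *Prdx1*, *Sod1*, *Sod2*, *Txnrd1* and *Gclc* would move with their pieces.

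**Figure D3:**
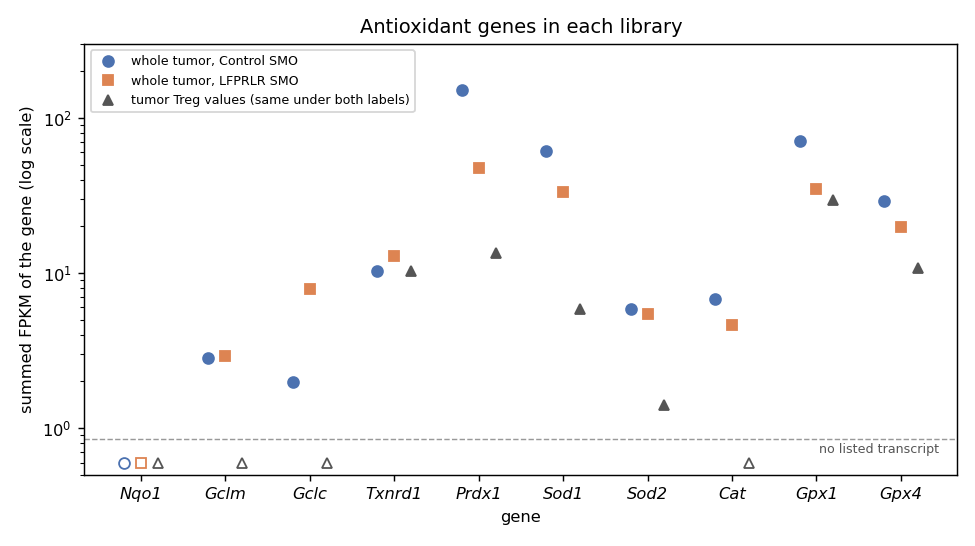
Summed FPKM of each member on a log axis in the whole tumor Control SMO, whole tumor LFPRLR SMO and tumor Treg libraries, 1 pooled library each, with open symbols under the dashed line for members not listed in a library. *Prdx1*, *Gpx1*, *Sod1* and *Gpx4* are the 4 highest members in whole tumor, and *Gpx1* is the highest in the Treg library.

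Whole tumor and Treg lists were made by different programs and normalized separately, so FPKM of whole tumor and Treg, though given beside each other, were not compared, and the place of a gene was read from percentiles of the mean over covered bases among the 2542 genes listed in all 3 libraries. *Gpx1* stood at the 94.1st percentile with Control SMO, the 92.3rd with LFPRLR SMO and the 95.9th in the Treg library. *Prdx1* stood at 94.4, 89.7 and 91.1, *Gpx4* at 86.7, 86.0 and 89.4, and *Sod1* at 84.9, 91.6 and 80.8. *Txnrd1* was placed at 61.4, 70.8 and 55.3, and *Sod2* at 15.2, 14.7 and 17.9. The place moved most for *Txnrd1* and *Sod1*. Within a library, *Gpx1* was 2.83, 1.05 and 5.03 times *Sod1* in the mean over covered bases, where summed FPKM gave 1.16 in place of 2.83 because *Sod1* was in 2 pieces with Control SMO. *Gpx1* was 2.44, 1.74 and 2.75 times *Gpx4*, necessarily the same by both measures because each gene had 1 transcript per library.

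Promoters were searched for the antioxidant response element core to which NRF2 binds, TGACNNNGC on either strand, in windows of 250 bases before to 50 after each start (RefSeq, GRCm38.p6). Of 32851 windows, 12.4% held a match. The 9 members with windows had 14, of which 4 held a match, in *Gclm*, *Prdx1*, *Sod1* and *Txnrd1*. In all 4 the match was on the opposite strand and reads GCNNNGTCA below, in capitals, so that the members with and without it can be compared.
Gclm, chr3:122245397-122245457: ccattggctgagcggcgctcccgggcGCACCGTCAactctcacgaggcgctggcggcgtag
Prdx1, chr4:116685440-116685500: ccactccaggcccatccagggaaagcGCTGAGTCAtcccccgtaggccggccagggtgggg
Sod1, chr16:90220680-90220740: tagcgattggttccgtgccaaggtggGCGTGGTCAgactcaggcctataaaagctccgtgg
Txnrd1, chr10:82859088-82859148: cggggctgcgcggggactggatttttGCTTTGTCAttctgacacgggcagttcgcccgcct
In *Prdx1* the match overlaps the AP-1 motif TGANTCA. The 4 genes with a match had log2 ratios of 0.05, -0.71, 0.01 and 0.17 over shared bases, in the order shown, and *Gpx1*, *Gpx4*, *Cat* and *Sod2*, with no match in their windows, had -1.03, -0.54, -0.55 and -0.16. *Nqo1* had no match and no ratio, and *Gclc* had no window, so neither is in this comparison. Sites outside the windows were not searched for. The assigned *Gclm* transcripts began at 122259216 (Control SMO) and 122259212 (LFPRLR SMO), outside its window (chr3:122245307-122245606). For *Txnrd1* the Control SMO transcript began at 82859036 and the Treg transcript at 82859216, both in the window with the match (chr10:82858956-82859255). The LFPRLR SMO transcript began at 82860142, in another window with no match (chr10:82860091-82860390).

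Other redox genes, 94 in 7 lists, gave the setting for these values. Of these, 79 passed the minimum, and the median log2 ratio in summed FPKM was -0.26. In that measure 6 were at least 2 times higher and 10 at least 2 times lower with LFPRLR SMO, beside 18.3% and 16.6% of all genes. Of the 94, 6 were listed only with Control SMO and 3 only with LFPRLR SMO, where the ratio rests on a transcript being listed or not. Among all genes, 9561 were listed with Control SMO, 9660 with LFPRLR SMO and 8667 in both. Over shared bases 0 of 71 were higher and 1 was lower, beside 1.63% and 3.33% of all genes. The lower one was *Cyba*, a membrane subunit of the superoxide-producing NADPH oxidase, at 21.1 and 8.26 FPKM (log2 ratio -1.34). The median over shared bases was -0.25, with 60 of 71 (84.5%) below 0, beside 63.6% of all genes and 5 of the 9 members.

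Among 10 NRF2 regulators, all had a shared-base ratio below 0 (median -0.26), beside 63.6% of all genes. None of these regulators, 0 of 10, was past a factor of 2, beside 1.63% higher and 3.33% lower among all genes. *Keap1*, which binds NRF2 for degradation, stood at 3.44 and 9.66 FPKM in sum but at a log2 ratio of -0.06 over shared bases, and *Sqstm1*, an autophagy receptor that binds KEAP1, at 27.3 and 23.5 FPKM. Of 24 other NRF2 targets, 22 passed the minimum, and 2 were higher and 1 was lower in summed FPKM, beside 18.3% and 16.6% of all genes. Over shared bases 17 of 20 lay below 0 (median -0.18), beside 63.6% of all genes. The ferritin chains differed from each other, as *Fth1* had 498.0 and 276.3 FPKM and *Ftl1* 93.6 and 93.5 FPKM.

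The share of genes below 0 over shared bases in the lists that follow is to be read beside 63.6% of all genes. The thioredoxin, glutathione and selenoprotein synthesis lists had 0 genes past a factor of 2 on that measure, beside 1.63% higher and 3.33% lower among all genes. Of 14 thioredoxin and peroxiredoxin genes, 13 passed the minimum and 11 of 12 lay below 0 over shared bases (median -0.31). *Prdx2*, a cytosolic peroxiredoxin like *Prdx1*, had 82.3 and 52.1 FPKM (log2 ratio -0.62 over shared bases), while *Txn1*, the thioredoxin that *Txnrd1* reduces, had 39.9 and 41.2 FPKM. Of 21 glutathione enzymes, 13 passed the minimum, with 9 of 12 below 0 over shared bases (median -0.39), and *Gsr*, which regenerates reduced glutathione, had 28.3 and 26.2 FPKM. In the selenoprotein synthesis list, 7 of 9 lay below 0 (median -0.23), and *Selenop*, the selenium carrier, had 36.7 and 25.1 FPKM. The other superoxide and quinone enzymes had 2 of 5 below 0 over shared bases (median 0.00), with *Park7*, a redox-sensitive chaperone, at 14.6 and 8.54 FPKM. All 6 measured NADPH oxidase genes were below 0 over shared bases (median -0.45).

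**Figure D4:**
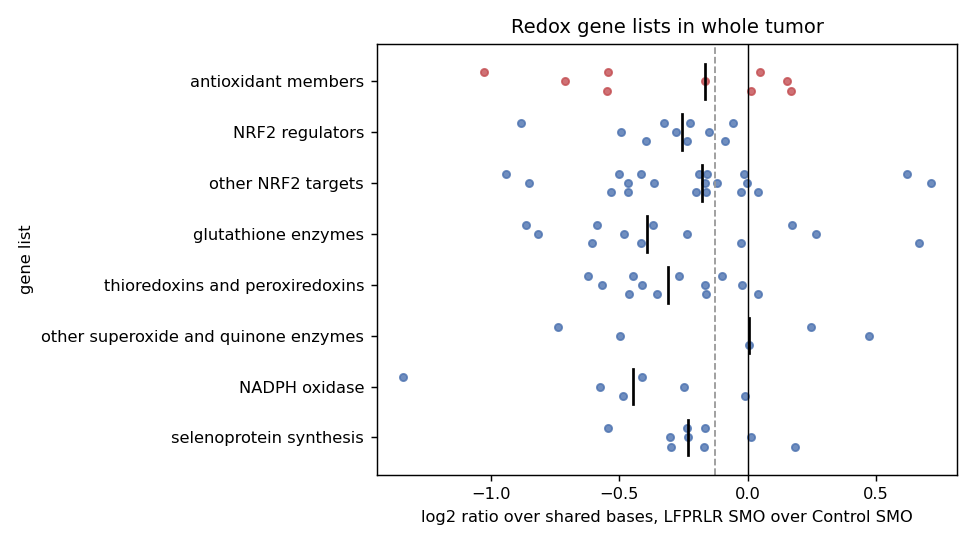
Log2 ratio of LFPRLR SMO over Control SMO in whole tumor over shared bases for the genes of each redox list, with a point per gene, a bar at the list median, a dashed line at the median of all genes and 1 pooled library per group. The member median lies at -0.16 beside -0.13 for all genes, and the lowest point among the members is *Gpx1* at -1.03.

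Marker genes of other cell types were read beside these ratios, since in bulk RNA fewer cells of a type and less RNA per cell cannot be told apart. All 16 monocyte and macrophage genes were listed in both whole tumor libraries. Their summed levels were 729.8 FPKM with Control SMO and 500.1 FPKM with LFPRLR SMO. In summed FPKM 14 of 16 had a log2 ratio below 0 (median -0.49), beside 53.7% of all genes (median -0.08). Over shared bases 13 of 16 did, beside 63.6% of all genes. This difference had the direction of that of *Gpx1* (-1.03), *Gpx4* (-0.54) and *Cyba* (-1.34), and its part in their ratios was not tested. The epithelial list (11 of 12 listed, summed 312.5 and 317.2 FPKM) and the fibroblast list (9 of 10, 892.3 and 883.8 FPKM) had median log2 ratios of 0.07 and 0.06. The neutrophil list (5 of 8) was at 72.4 and 113.8 FPKM with a median of 0.56, the endothelial list had a median of -0.33 and the adipocyte list (3 of 8) 0.04, and 0 of 12 T cell genes were listed in either library. These medians are of summed FPKM, and over shared bases they were -0.46 for monocytes and macrophages, -0.05 for epithelial, 0.10 for fibroblast, 0.56 for neutrophil, -0.13 for endothelial and 0.56 for adipocyte genes. Of 8 erythrocyte genes, whose cells are rich in *Cat*, *Prdx2* and *Gpx1*, *Hbb-bs* was listed at 35.0 FPKM with Control SMO and not with LFPRLR SMO, and *Alas2* at 1.17 FPKM with LFPRLR SMO and not with Control SMO, and their part in the *Gpx1* and *Prdx2* values was not tested.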

How the data were processed

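RNA of 6 mice per group was combined, depleted of rRNA and sequenced by the authors on an Illumina MiSeq. The authors deposited transcript lists on mm10 (GRCm38) with FPKM and coverage (mean read depth). Those for whole tumor were made with Cufflinks and carry 95% bounds, which are given only where they held the FPKM, as for 94.8% and 96.1% of transcripts. Those for tumor Tregs were made with StringTie. Versions in the submitters' processing notes were 2.0.2 for Cuffdiff, 1.2.3 for StringTie and 2.0.4 for HISAT2. Read numbers are not given in the sources used here. Of the Treg FPKM weighted by length, 72.3% lay in *Rn45s*, the ribosomal precursor.

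Transcripts of at least 300 bases were assigned to genes of GENCODE M21 by a shared intron or 50% of exon bases, with Python 3.11.15 and numpy 2.4.6. The deposited FPKM were summed per gene, 0.1 was added and log2 ratios were taken. Genes with at least 1 FPKM in either whole tumor library were kept, and called where past a factor of 2. Other minimums, factors, pseudocounts, scalings and assignments were tried. The scripts were tested on simulated data. Replicates did not exist, so no test was made.

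Members and gene lists were chosen with earlier results of these data known. The values over shared bases and over covered bases were added after seeing the data. Named genes were all members, *Prlr*, and from each list the 2 highest and the 2 with the largest ratio. Any other gene named was chosen after its values were seen. The duplicated LFPRLR SMO Treg list was not used.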

Additional observations from a re-analysis of the deposited data

How the results depend on the processing

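All settings leave 1 library per group, so none measures the spread between mice, and low levels are limited by read depth (1.85 to 6.58 in whole tumor for *Gclm*, *Gclc* and *Sod2*). The median log2 ratio of the members ran from -0.64 in coverage to -0.16 over shared bases. *Gpx1* (-1.11 to -0.73), *Prdx1* (-1.77 to -0.51), *Gpx4* (-0.68 to -0.40) and *Cat* (-0.71 to -0.38) stayed below 0 and *Gclc* (0.15 to 2.12) above 0 in all 13 settings that gave a ratio, for *Gclc* over shared bases only through exon 16, while *Txnrd1* (-0.83 to 0.46), *Sod1* (-0.89 to 0.01), *Sod2* (-0.37 to 0.05) and *Gclm* (-0.07 to 0.20) took both signs. No member ratio past a factor of 2 changed sign.

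The counts past a factor moved. With a minimum of 5 FPKM, 859 genes were higher (13.9%) and 797 lower (12.9%), with 1 member higher and 2 lower. With the most abundant transcript only, 0 members were higher and 2 lower, beside 13.7% and 14.0% of all genes. In the exon-weighted value 0 members were higher and 0 lower, with 500 genes higher (5.66%) and 709 lower (8.03%). With assignment by shared intron only, 0 members and 1020 genes were higher, and the split was 11.3% higher against 18.5% lower. After rescaling the libraries to a common total, which moved the median gene by 0.15, and after centring on the median gene, 1 member was lower, and rescaling gave 21.2% higher against 14.6% lower. At a factor of 1.5, 2782 genes were higher (26.7%) and 2737 lower (26.3%), with 1 member higher and 3 lower. At a factor of 3, 1 member was higher and 1 lower, with 1229 genes higher (11.8%) and 1066 lower (10.2%). Among genes listed in both libraries, 974 were higher (11.2%) and 908 lower (10.5%), with 1 member higher and 2 lower. Over shared bases, chosen after seeing the data, 0 members were higher and 1 lower, with 139 genes higher (1.63%) and 284 lower (3.33%). No paired analysis was possible because each group holds 1 library.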
